A study of Mus musculus with 12 samples.

Results

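The 37 transcripts of the mouse mitochondrial genome were measured in pituitary RNA from 4 groups of mice. They were taken as all genes whose symbol starts with mt-, and this gave 13 protein genes, 2 ribosomal RNA (rRNA) genes and 22 transfer RNA (tRNA) genes out of 55421 gene IDs in the count files. Of these 37, 35 had enough counts to be tested, and the tRNA genes mt-Ts1 and mt-Tv did not. The mice were of the C57BL/6 strain and all carried the floxed allele Gpr101 fl/fl, so the controls share it. Gpr101 encodes a G protein-coupled receptor. The labels name the genotypes by a virus, Cga-ctrlAAV or Cga-creAAV (AAV, adeno-associated virus), and the treatments as control vehicle or AA14, given for 1 week. Mice with the control virus form the groups ctrl_vehicle and ctrl_AA14, and mice with the cre virus form cre_vehicle and cre_AA14. Each has 3 libraries, numbered as in their titles. The pituitary cells were dispersed before RNA isolation. The labels do not give the age of the mice, the cells that the virus reached or whether each library came from a separate mouse, so p-values measure only the spread between these libraries.

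The mitochondrial genome is a small circular DNA present in many copies per cell. It is read from both strands into long precursor RNAs, and enzymes cut these at the tRNAs to release the rRNAs and messenger RNAs. Its 13 proteins are core subunits of respiratory complexes I, III, IV and V, whose remaining subunits are encoded in the nucleus, and endocrine cells use the ATP made by this chain to make and release hormone. The 2 rRNAs and 22 tRNAs serve only the mitochondrial ribosome.

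Totals lay between 48693682 and 73388221 counts per library. The hormone genes that define the pituitary were abundant, with 168501 to 319522 CPM (counts per 1000000 counts of the library) summed over 7 genes, and 8 muscle markers reached at most 5.23 CPM in sum. Gpr101 was at 1.22 to 16.1 CPM in the 6 libraries with the control virus and 0.901 to 4.29 CPM in the 6 with the cre virus, so its level did not separate the genotypes. Markers of oligodendrocytes (8 genes) were high in 3 libraries, ctrl_vehicle 3, ctrl_AA14 1 and cre_vehicle 2, with 782 to 3393 CPM in sum against 80.1 to 475 CPM in the other 9. Malat1, a long RNA retained in the nucleus, was at 1105 to 1560.4 CPM in 5 libraries (ctrl_AA14 1 to 3, cre_vehicle 1 and cre_AA14 2) and at 199 to 549 CPM in the other 7. In control-virus mice this split coincides with AA14, so the 2 cannot be told apart there. The library cre_AA14 1 had 662 CPM of Fos and 717 CPM of Hspa1a, which are induced by stress and tissue handling, against at most 233 and 122 CPM elsewhere.

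Several mitochondrial genes overlap each other or have near-identical copies in the nuclear genome, and these stretches set what their counts can show. All coordinates are from the GENCODE vM21 annotation of GRCm38, and every sequence is given 5′ to 3′ on the gene's own strand. The first pair shows mt-Co1, the catalytic subunit of complex IV, at chrM:6381-6470 (plus strand) and the start of its nuclear copy Gm29216 at chr1:24616108-24616197 (minus strand), with the bases that differ in capitals.
mt-Co1: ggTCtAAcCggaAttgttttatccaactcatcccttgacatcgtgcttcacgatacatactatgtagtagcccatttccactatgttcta
Gm29216: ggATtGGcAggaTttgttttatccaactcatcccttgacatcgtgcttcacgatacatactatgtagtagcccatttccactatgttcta
The second pair shows the start of mt-Nd3, a small complex I subunit, at chrM:9459-9548 (plus strand) and of its copy Gm28438 at chr1:24613030-24613119 (minus strand), again with the differing base in capitals.
mt-Nd3: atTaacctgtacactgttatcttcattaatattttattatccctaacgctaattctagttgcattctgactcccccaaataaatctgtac
Gm28438: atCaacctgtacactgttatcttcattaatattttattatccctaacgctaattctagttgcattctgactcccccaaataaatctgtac
The third shows the start of mt-Co2, the copper-binding subunit of complex IV that accepts electrons from cytochrome c, at chrM:7013-7102 (plus strand). Its copy Gm28661 at chr1:24615476-24615565 (minus strand) has the same bases, so only the mitochondrial sequence is printed.
mt-Co2: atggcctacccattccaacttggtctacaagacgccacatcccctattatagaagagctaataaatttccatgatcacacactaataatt

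These copies belong to a block of 7 pseudogenes in a row at chr1:24611535-24616197 that holds a stretch of the mitochondrial genome from mt-Co1 to mt-Nd4. Over their aligned lengths the copies of mt-Co2, mt-Atp6, mt-Co3, mt-Nd4l and mt-Nd4 had 0 mismatches, that of mt-Nd3 had 1 in 345 bases and that of mt-Co1 had 6 in 492 bases. Windows of 150 bases, the read length, were matched against annotated nuclear transcripts. An exact match was found for 99.4% of the windows of mt-Co2, 99.4% of mt-Atp6, 99.8% of mt-Co3, 97.0% of mt-Nd3, 98.0% of mt-Nd4l, 59.2% of mt-Nd4 and 23.6% of mt-Co1. The other 6 protein genes (mt-Nd1, mt-Nd2, mt-Nd5, mt-Nd6, mt-Cytb and mt-Atp8) and both rRNA genes had no such match. Copies that are not annotated were not searched. mt-Atp8 lies between mt-Co2 and mt-Atp6, whose copies are both in this block, so its reads may fit chromosome 1 too.

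The counts of the copies followed these matches. Gm28661 had 0.962 to 0.991 counts for each count of mt-Co2 over the 12 libraries, and Gm28437 had 0.976 to 0.995 for each count of mt-Co3. The ratio was 0.921 to 0.975 for Gm28438 and mt-Nd3, 0.879 to 0.983 for Gm10222 and mt-Nd4l, 0.337 to 0.417 for Gm28439 and mt-Nd4, and 0.0705 to 0.0883 for Gm29216 and mt-Co1. Where gene and copy were identical over nearly their whole length, their counts were thus nearly equal. The pair of mt-Atp6 and Gm10925 was the exception, with 5.74 to 6.95 counts for the copy for each count of the gene. The 7 copies together took 1.15% to 1.72% of a library's counts. A shorter copy of mt-Co2 on chromosome 2, Gm13341, had 302 to 435 counts per library.

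The genes of complex V share their ends as well. mt-Atp8 and mt-Atp6, subunits of the membrane part of ATP synthase, overlap by 43 bases in different reading frames, and these are in capitals below (chrM:7880-7969 and chrM:7927-8016, plus strand).
mt-Atp8: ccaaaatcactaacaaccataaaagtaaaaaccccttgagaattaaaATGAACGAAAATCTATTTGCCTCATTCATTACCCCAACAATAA
mt-Atp6: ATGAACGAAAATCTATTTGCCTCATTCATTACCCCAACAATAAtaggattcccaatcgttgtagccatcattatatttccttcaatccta
The 3′ ends of mt-Nd5 and mt-Nd6, both complex I subunits, overlap by 14 bases on opposite strands, and the paired bases are in capitals (chrM:13506-13565, plus strand, and chrM:13552-13611, minus strand). mt-Nd6 is the only protein gene on the minus strand, which also carries 8 of the 22 tRNA genes. These genes are read with the light strand as template and are called light-strand genes here.
mt-Nd5: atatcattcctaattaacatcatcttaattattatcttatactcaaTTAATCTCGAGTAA
mt-Nd6: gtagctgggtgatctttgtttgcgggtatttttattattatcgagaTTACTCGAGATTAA
The sources used here do not give the authors' strand setting or their handling of overlaps, so the counts of these 4 genes are uncertain near their shared ends.

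Mitochondrial transcripts took 4.12% (cre_AA14 1) to 6.67% (cre_vehicle 2) of a library's counts, with a median of 5.77%. Nearly all of this came from the protein genes, at 4.08% to 6.55%. The rRNA genes took 0.0410% to 0.233% and the tRNA genes 0.00162% to 0.0155%. With the copies added, the protein genes took 5.31% to 8.27%, a sum that may count some reads more than once.

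By complex, 3 genes of complex IV summed to 22412 to 28920.3 CPM and 7 genes of complex I to 9777 to 23315 CPM. mt-Cytb, the complex III subunit that passes electrons between the 2 quinone sites, was at 6754 to 10234 CPM, and both complex V genes together were at 1439 to 2257 CPM. The sum for complex IV varied least, with a coefficient of variation of 8.40% over the 12 libraries. The coefficient was 13.2% for complex III, 14.4% for complex V and 21.1% for complex I. Most of the complex IV sum was mt-Co1, with a mean of 19267 CPM out of 25890 CPM. Its other members varied more than the sum, mt-Co2 by 16.1% and mt-Co3 by 12.4%. The complex I sum was 9777 CPM in cre_AA14 1 and 14520 to 23315 CPM elsewhere. This order of sums is therefore not read as a property of the complexes. The protein genes as a whole varied by 12.9%, the tRNA genes by 32.2% and the rRNA genes by 56.5%.

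**Figure D1:**
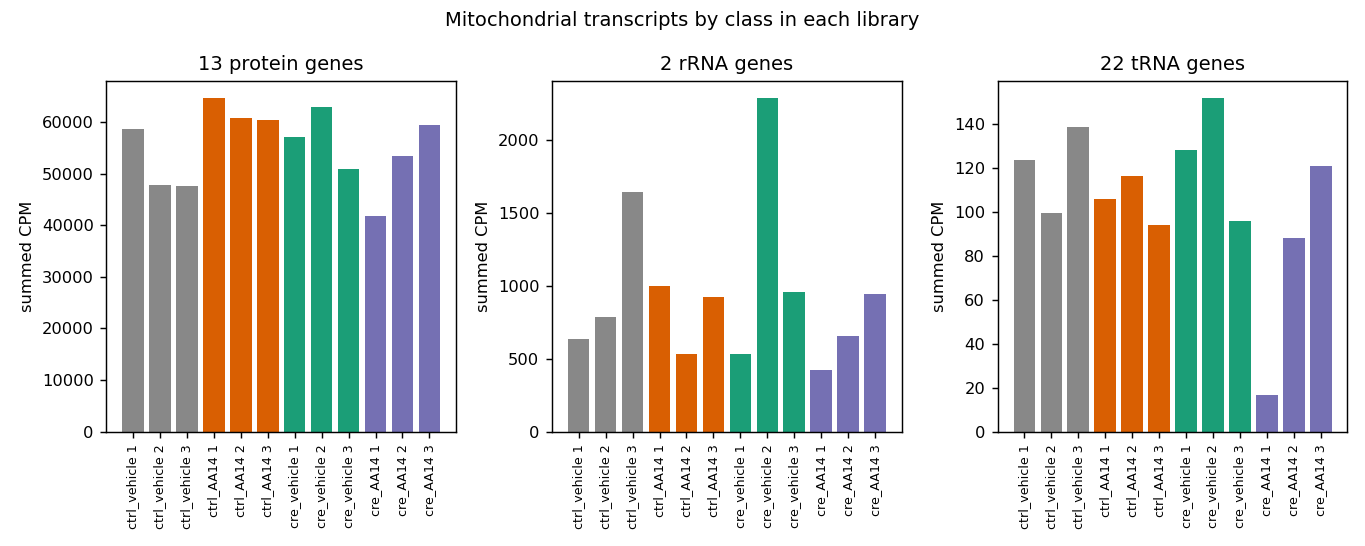
Bars give the summed CPM of the 13 protein genes, the 2 rRNA genes and the 22 tRNA genes in each of the 12 libraries, coloured by group, each panel with its own axis from 0. The protein genes lie between 41714 and 64726 CPM, while cre_vehicle 2 and ctrl_vehicle 3 stand out in rRNA and cre_AA14 1 has the lowest tRNA sum.

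Genes were compared with each other as CPM per kilobase of exon (mean ± SD over 12 libraries). mt-Co1 was highest at 12471 ± 1253, followed by mt-Cytb at 7388 ± 974, mt-Atp8 at 6519 ± 950, mt-Co2 at 4618 ± 745 and mt-Co3 at 4419 ± 547. The means of the last 2 of these differed by less than their SDs, as did those of mt-Co3 and mt-Nd1 (4141 ± 707). The complex I genes mt-Nd4 (3361 ± 712), mt-Nd5 (3136 ± 914) and mt-Nd4l (3060.3 ± 509) came next. Below them were mt-Nd6 (2499.7 ± 873) and mt-Nd2 (2398 ± 418). The SDs are spread between libraries and do not test differences between genes measured in the same libraries. mt-Nd3, at 792 ± 180, and mt-Atp6, at 749 ± 109, had the lowest levels of the protein genes.

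Part of this order depended on how reads of the copies were treated. How reads that fit several genes were counted is not known, so adding the copies may count some reads more than once. With the counts of the copies added to their gene, an alternative chosen after seeing the data, mt-Atp6 was at 5408 ± 915 CPM per kilobase and moved from the 13th to the 7th place. mt-Co2 moved from the 4th to the 2nd place (9155 ± 1471) and mt-Co3 from the 5th to the 3rd (8778 ± 1086). mt-Nd3 remained low at 1548 ± 353. Nothing could be added for mt-Atp8, which has no annotated copy, so its place in this order is uncertain. The means of the rRNA genes were below those of all protein genes either way, with 463 ± 246 for mt-Rnr1, the RNA of the small ribosomal subunit, and 316 ± 189 for mt-Rnr2, that of the large subunit. Single libraries of mt-Rnr1 ranged from 211 to 1102 and so reached above the means of mt-Nd3 and mt-Atp6 without copies. How much rRNA the library preparation retained was not measured, so these levels do not rank the classes by their abundance in cells.

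**Figure D2:**
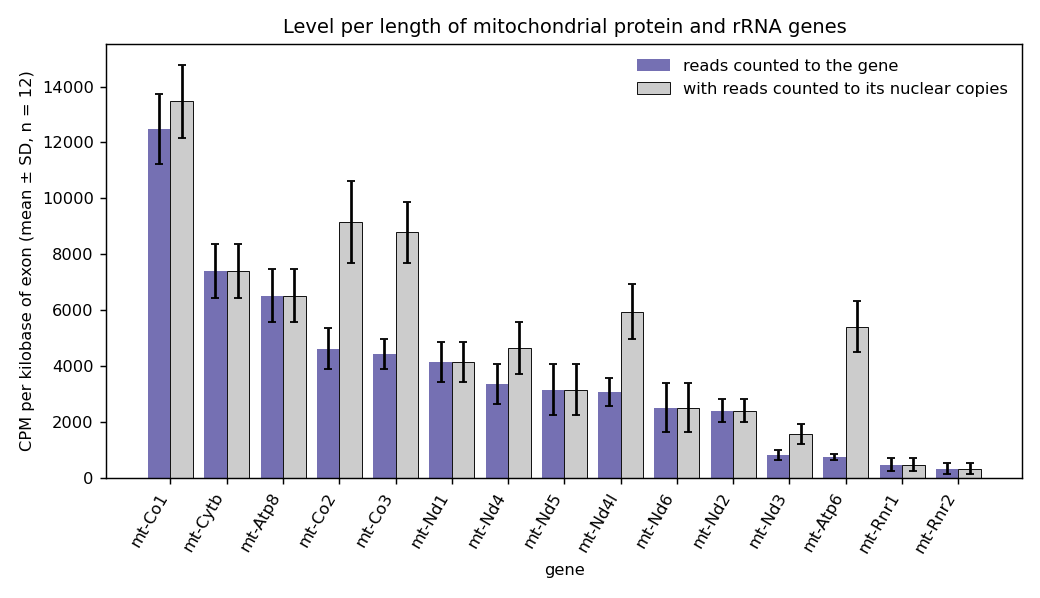
Bars give the mean level of each protein and rRNA gene in CPM per kilobase of exon, with the SD over 12 libraries, once from the gene's own counts and once with the counts of its nuclear copies added. mt-Co1 is highest in both, and mt-Atp6 goes from 749 to 5408.

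AA14 was first compared with vehicle in mice with the control virus. All 13 protein genes had positive log2 differences between ctrl_AA14 and ctrl_vehicle, with a median of 0.39 against -0.016 over the 22630 genes tested, of which 49.1% were positive. None passed edgeR's quasi-likelihood test at an adjusted p of 0.05, where 0.00442% of all genes passed. At an unadjusted p under 0.05, 6 of 13 were higher, as were 8.03% of all genes. In 10 of 13 genes the ctrl_AA14 libraries lay above all ctrl_vehicle libraries, which held for 17.6% of all genes. In bulk RNA a lower or higher level can mean fewer or more cells of a type or less or more RNA per cell, and these cannot be told apart. With the counts of the nuclear copies added, the median remained 0.39 and none passed. DESeq2 called 3 of the genes and limma-voom 4, as detailed for each gene below. The shares of all genes called with these tools are not given here, so whether these counts exceed them cannot be told.

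In complex IV, mt-Co2 was at 2934, 2577 and 2468 CPM in ctrl_vehicle and at 3982, 3771 and 3667 CPM in ctrl_AA14. The groups did not overlap and differed by 0.52 on the log2 scale (SE 0.14, adjusted p = 0.141 in edgeR). It passed in DESeq2 (adjusted p = 0.0192), in limma-voom (adjusted p = 0.0171) and in edgeR with the libraries of these 2 groups only (adjusted p = 0.0484). mt-Co3, the third core subunit, was at 3384, 2804 and 3189.7 CPM against 4166, 3712 and 3877 CPM, a log2 difference of 0.33 (SE 0.13) with no overlap. It passed in limma-voom only (adjusted p = 0.0410). mt-Co1, the most abundant member, was at 21195, 17031 and 19153 CPM against 20772, 19246 and 19600.5 CPM. Its groups overlapped and its log2 difference was 0.055 (SE 0.14), turning to -0.022 without ctrl_vehicle 2.

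In complex V, mt-Atp6 was at 486, 426 and 399.7 CPM in ctrl_vehicle and 636, 592 and 587 CPM in ctrl_AA14. The groups were apart, with a log2 difference of 0.47 (SE 0.13, edgeR adjusted p = 0.141, DESeq2 adjusted p = 0.0184, limma-voom adjusted p = 0.0202). mt-Atp8 was at 1287, 1170.2 and 1039.6 CPM against 1621, 1435 and 1517 CPM, a log2 difference of 0.39 (SE 0.15). In complex III, mt-Cytb (chrM:14145-15288, plus strand) was at 8410.0, 7085 and 6754 CPM against 10234, 9641 and 9368 CPM, with a log2 difference of 0.39 (SE 0.13, edgeR adjusted p = 0.141, DESeq2 adjusted p = 0.0380, limma-voom adjusted p = 0.0285). Neither of these 2 genes overlapped between the groups.

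All 7 complex I genes had positive log2 differences, between 0.24 and 0.57, and 5 did not overlap. mt-Nd4, which carries part of the proton pump, had the highest value at 0.57 (SE 0.21), from 4722, 3669 and 3014 CPM in ctrl_vehicle to 5866, 5248 and 5798 CPM in ctrl_AA14. mt-Nd1, which helps form the quinone site, was at 4176, 3196 and 3449 CPM against 4948, 4492 and 4414 CPM, without overlap. mt-Nd3 was at 255, 219 and 275 CPM against 364, 329 and 339 CPM, also without overlap. For mt-Nd2, at 0.33 (SE 0.18), and mt-Nd6, at 0.52 (SE 0.56), the groups were apart as well. mt-Nd5, at 0.24 (SE 0.46), and mt-Nd4l, at 0.24 (SE 0.21), overlapped. The errors use the spread within all 4 groups, and both mt-Nd5 and mt-Nd6 lay far below the rest of their group in cre_AA14 1.

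The other classes did not share this direction. mt-Rnr1 and mt-Rnr2 had log2 differences of -0.22 (SE 0.50) and -0.41 (SE 0.54), with overlapping groups. Of the 20 tRNA genes tested, 9 were positive and 11 negative, with a median of -0.12. The share of a library's counts in the 13 protein genes was 6.23%, 4.74% and 4.96% in ctrl_vehicle and 6.55%, 6.06% and 5.83% in ctrl_AA14, and these overlapped. Its log2 difference was 0.22 (exact two-sided permutation p = 0.3, where 3 against 3 libraries allow no p below 0.1, adjusted p = 0.6 over 6 comparisons). The difference was 0.33 (exact permutation p = 0.1, adjusted p = 0.3) as a share of the counts outside the hormone genes and 0.28 (exact permutation p = 0.1, adjusted p = 0.3) with TMM-scaled library sizes. It was 0.14 without ctrl_vehicle 2 and 0.34 without ctrl_vehicle 1.

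**Figure D3:**
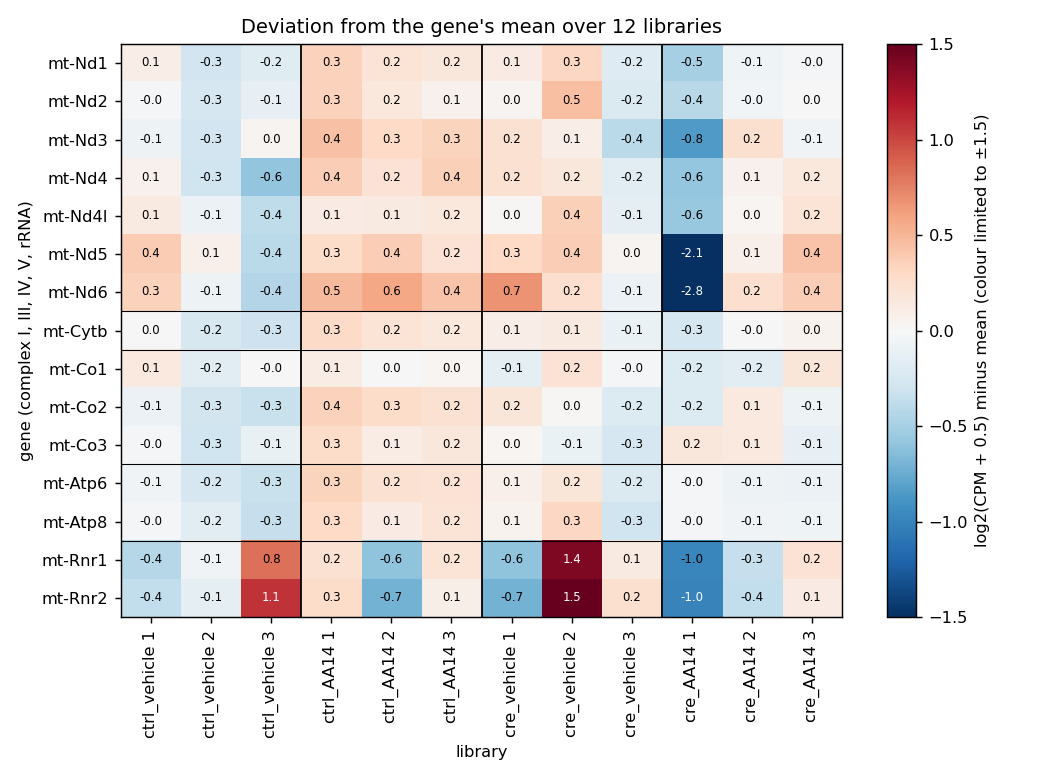
Each cell gives the deviation of log2(CPM + 0.5) from the gene's mean over 12 libraries, with genes ordered by complex and libraries by group. The ctrl_AA14 columns are above the mean for all 13 protein genes, least for mt-Co1, and mt-Nd5 and mt-Nd6 in cre_AA14 1 and both rRNA genes in ctrl_vehicle 3 and cre_vehicle 2 stand apart.

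The libraries of ctrl_AA14 also belonged to the 5 rich in Malat1. The 2 genes mt-Co2 (3463 to 3982 CPM in these 5, 2468 to 3153 CPM in the other 7) and mt-Nd3 (313 to 364 CPM against 149 to 287 CPM) were higher in all 5 than in any other library, cre_vehicle 1 and cre_AA14 2 included. The share of all genes that separate these libraries in the same way is not given here, so this is not read as particular to the 2. The sum of the 13 protein genes was not apart, at 53519 to 64726 CPM against 41714 to 63021 CPM. In those 5 libraries the deviation of 16366 genes from their means decreased with GC content (Spearman's rho across genes from -0.41 to -0.21), and in the other 7 it did not (0.018 to 0.35). Genes are not independent replicates, so no p is given.

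Mitochondrial protein genes are poor in GC, at 31.9% to 41.1%, and 9.20% of the nuclear genes of at least 1 CPM have a GC content at or below this upper value. The 1501 nuclear genes within that range had a median log2 difference of 0.28 between ctrl_AA14 and ctrl_vehicle, and 74.9% of them were positive. With offsets corrected for the trend with GC content, the median of the 13 protein genes was 0.014, against 0.061 over all genes. Then 8 of 13 were positive, with values from -0.22 for mt-Co1 to 0.20 for mt-Co2, and the lowest adjusted p was 0.309. The genes mt-Nd2 (-0.11), mt-Nd3 (-0.10), mt-Nd5 (-0.10), mt-Co1 (-0.22) and mt-Atp8 (-0.18) changed sign under this correction. In control-virus mice the GC trend, the Malat1 level and AA14 go together, and their parts in the result cannot be told apart.

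**Figure D4:**
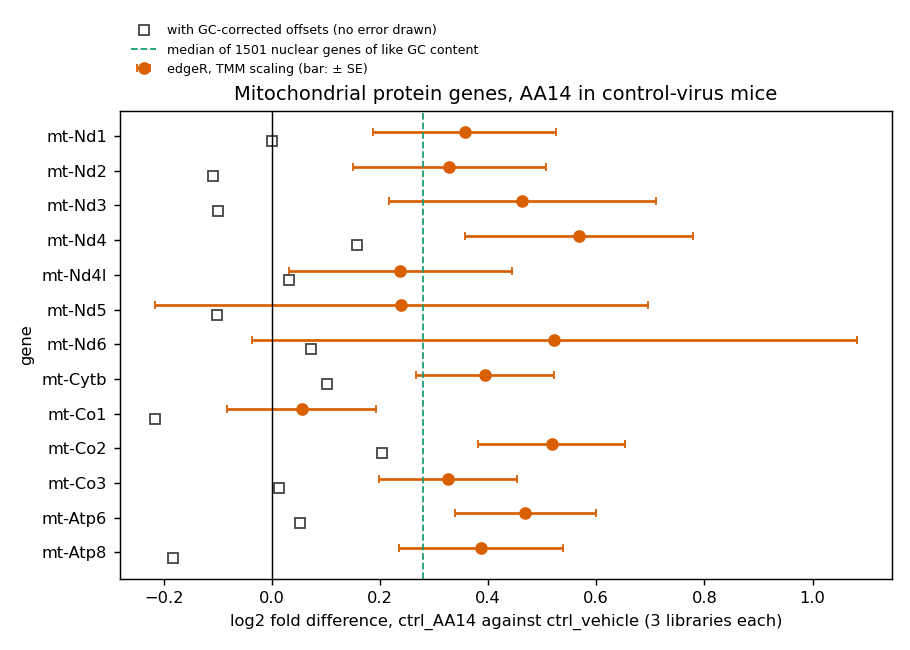
Filled points give the log2 difference between ctrl_AA14 and ctrl_vehicle for each protein gene with its SE, open squares the value with GC-corrected offsets, and the dashed line the median of 0.28 over 1501 nuclear genes of like GC content. All filled points are above 0, and 8 of the 13 squares are.

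Nuclear genes of the same chain and of mitochondrial gene expression were followed in lists. Of 74 nuclear subunits of complexes I to V, 34 were positive and 40 negative in this comparison, with a median of -0.034, and none passed. By complex the medians were 0.015 for 36 genes of complex I, -0.38 for 4 of complex II, -0.079 for 9 of complex III, 0.017 for 10 of complex IV and -0.026 for 15 of complex V. Unadjusted p was under 0.05 for 3 higher and 13 lower genes of the 74, against 8.03% and 15.8% of all genes. The nuclear subunits thus had both signs where the mitochondrial ones had 1.

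Among 11 genes that transcribe or replicate mitochondrial DNA, 7 were positive, with a median of 0.28. Of 18 genes for processing, stability and decay of mitochondrial RNA, 12 were positive with a median of 0.15. For 78 proteins of the mitochondrial ribosome the median was 0.12, with 48 positive. Of 6 enzymes that modify mitochondrial rRNA, 3 were positive. Of 6 regulators of mitochondrial biogenesis, 5 were negative, with a median of -0.49. At an unadjusted p under 0.05, where 8.03% of all genes were higher and 15.8% lower, these 5 lists had in this order 4 higher and 1 lower, 2 and 2, 5 and 5, 0 and 1, and 0 and 1. No gene of these 5 lists passed the edgeR test.

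In mice with the cre virus, the comparison of AA14 with vehicle gave 12 negative values and 1 positive value (mt-Co3, 0.17) among the 13 protein genes, where 49.7% of all genes were positive. The median was -0.15, against -0.0020 over all genes. No member passed edgeR, as 0% of all genes did, nor DESeq2 or limma-voom. At an unadjusted p under 0.05 there were 0 of 13 with each tool, against 1.2% of all genes higher and 1.09% lower in edgeR. No protein gene was free of overlap between the groups, where 3.32% of all genes were higher and 2.54% lower without overlap. In cre_vehicle mt-Co2 was at 3526, 3153 and 2709.8 CPM, and in cre_AA14 it was at 2698, 3463 and 2954 CPM. mt-Cytb was at 8949, 9191 and 7801 CPM against 6967, 8358 and 8662 CPM. Both genes overlapped between the groups, with 1 cre_AA14 library of mt-Co2 and none of mt-Cytb among the 2 highest of the 6.

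The library cre_AA14 1 decided much of this value. Without it the median was -0.014 and 6 of 13 genes were positive, without cre_vehicle 2 the values were -0.055 and 4, and with limma-voom, which weights libraries by their quality, the median was 0.037 and 9 were positive. The share of counts in the protein genes was 5.79%, 6.42% and 4.98% in cre_vehicle and 4.08%, 5.36% and 5.57% in cre_AA14. These differed by -0.20 on the log2 scale (two-sided exact permutation test, p = 0.4, adjusted p = 0.6), and by -0.061 without cre_AA14 1.

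Within cre_AA14 1 the members were not low to the same degree. mt-Nd6, the light-strand protein gene, was at 169 CPM there against 845 to 1828 CPM in the other 11 libraries. Its neighbour mt-Nd5 was at 1222 CPM against 3994 to 7146 CPM. mt-Te, the tRNA gene next to mt-Nd6 on the same strand, was at 2.83 CPM against 21.9 to 52.0 CPM. mt-Nd4 (3028 CPM, others 3014 to 5866), mt-Cytb, mt-Co2, mt-Atp6 and mt-Atp8 were within the range of the other libraries, and mt-Co3 was at 3872 CPM, above their median of 3384 CPM. So 7 of 13 protein genes were lowest in this library, and the next lowest library was between 1.03 times (mt-Co1) and 5.0 times (mt-Nd6) as high.

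The 13 tRNA genes whose mean reached 1 CPM were all lowest in cre_AA14 1, and the next lowest library was 1.5 to 7.73 times as high. The 13 are, in order of position, mt-Tl1, mt-Ti, mt-Tm, mt-Ta, mt-Tn, mt-Tc, mt-Ty, mt-Tg, mt-Tr, mt-Th, mt-Tl2, mt-Te and mt-Tp. The sum of all tRNA genes was 16.5 CPM there and 88.0 to 152 CPM elsewhere. This library also had the highest Fos and Hspa1a and an oligodendrocyte marker sum of 475 CPM. The part of these in the result was not tested.

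For reference, mt-Te (chrM:14071-14139, minus strand), the tRNA for glutamate and the tRNA gene with the highest mean count level (34.5 CPM), reads as follows.
mt-Te: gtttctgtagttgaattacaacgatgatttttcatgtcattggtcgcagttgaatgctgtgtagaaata

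The ratio of mt-Nd6, the light-strand gene, to the other 12 protein genes was also computed. Because the strand setting of the counting is not known, mt-Nd6 counts may include reads of RNA from the other strand over the same bases. The ratio is thus one of counts and not of strand output. Over the 12 libraries mt-Nd6 and its neighbour mt-Nd5 had r = 0.983, with both lowest in cre_AA14 1. The ratio was 2.56, 2.34 and 1.81 counts per 100 in ctrl_vehicle and 2.56, 2.90 and 2.64 in ctrl_AA14. In cre_vehicle it was 3.31, 2.21 and 2.16, and in cre_AA14 it was 0.406, 2.62 and 2.55. The log2 difference for AA14 in control-virus mice was 0.28 (exact two-sided permutation p = 0.1, the smallest that 3 against 3 libraries allow, adjusted p = 0.6 over 6 comparisons), and 0.14 without ctrl_vehicle 3. For AA14 in cre-virus mice it was -0.85 (exact permutation p = 0.6), and without cre_AA14 1 it was 0.040.

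Ribosomal RNA genes followed another order of libraries. In CPM, ctrl_vehicle had 297, 384 and 707 of mt-Rnr1, ctrl_AA14 had 466, 262 and 461, cre_vehicle had 263, 1053 and 436, and cre_AA14 had 201, 314 and 465. For mt-Rnr2 the same groups had 339.8, 399.6 and 934 CPM, then 529.8, 268 and 466, then 268, 1238 and 518, and last 218, 339 and 477. Both genes were highest in cre_vehicle 2 and ctrl_vehicle 3. The 3 highest sums of both genes, 2290.2, 1641 and 996 CPM, were in the 3 libraries rich in oligodendrocyte markers. The third of these, ctrl_AA14 1, was close to libraries not rich in them. These were cre_vehicle 3 at 955, cre_AA14 3 at 943 and ctrl_AA14 3 at 927 CPM. The part of oligodendrocytes in the result was not tested.

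AA14 against vehicle in cre-virus mice gave log2 differences of -0.84 (SE 0.50) for mt-Rnr1 and -0.97 (SE 0.55) for mt-Rnr2, with overlap and edgeR adjusted p = 1.00 for both. Without the 3 oligodendrocyte-rich libraries the values were -0.11 and -0.20. The ratio of rRNA to protein gene counts was 1.09, 1.64 and 3.45 per 100 in ctrl_vehicle, 1.54, 0.872 and 1.53 in ctrl_AA14, 0.932, 3.63 and 1.87 in cre_vehicle, and 1.01, 1.22 and 1.58 in cre_AA14. The average AA14 effect on this ratio over both genotypes was -0.55 on the log2 scale (exact stratified permutation p = 0.195, adjusted p = 1). It was -0.30 without cre_vehicle 2 and -0.32 without ctrl_vehicle 3, both rich in oligodendrocyte markers.

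Transfer RNA genes had few counts. Mature tRNAs are short, and most RNA library protocols recover them poorly. Of the 22, 13 reached a mean of 1 CPM, and the other 9 were between 0.0282 and 0.684 CPM on average. Of the 20 tested, 5 were lower in every ctrl_AA14 library than in any ctrl_vehicle library, a share close to the 20.1% of all genes that were lower without overlap, and 0 were higher. The 5 are the neighbours mt-Tw, mt-Ta, mt-Tn, mt-Tc and mt-Ty, named for this pattern. Their log2 differences were between -1.14 and -0.83, and the lowest edgeR adjusted p was 0.318. The last 4 are light-strand genes between mt-Nd2 and mt-Co1. The sum of these 4 in CPM was 48.3, 45.9 and 74.1 for ctrl_vehicle, 27.6, 34.6 and 29.9 for ctrl_AA14, 39.1, 55.8 and 42.7 for cre_vehicle and 5.54, 28.4 and 47.3 for cre_AA14.

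Of the other 3 light-strand tRNA genes tested, mt-Tq, with a mean of 0.420 CPM, had a negative value too (-0.43, SE 0.78) but overlapped, and mt-Te and mt-Tp had positive values. In ctrl_vehicle mt-Te was at 40.3, 28.2 and 21.9 CPM, against 44.1, 48.6 and 36.9 CPM in ctrl_AA14, a positive log2 difference of 0.52 (SE 0.65) with overlap. mt-Tp, the tRNA for proline, was at 9.47, 7.08 and 6.95 CPM against 7.71, 8.34 and 9.86 CPM. In cre-virus mice 19 of the 20 tRNA genes tested had negative values for AA14, where 49.7% of all genes were positive. The median of the 20 was -0.89, and mt-Ti alone did not overlap (2.54% of all genes were lower without overlap). The sum of all tRNA genes was 16.5 CPM in cre_AA14 1, 88.0 and 121 CPM in cre_AA14 2 and 3, and 95.5 to 152 CPM in cre_vehicle. The median without cre_AA14 1 is not given here. mt-Tl1, a tRNA for leucine that follows mt-Rnr2, had the lowest unadjusted p of the tRNA genes for AA14 in cre-virus mice, with a log2 difference of -1.28 (SE 0.57, edgeR adjusted p = 1.00) and overlapping groups.

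mt-Ts2 and mt-Tl2, tRNA genes for serine and leucine, adjoin and share 1 base (in capitals, chrM:11613-11671 and chrM:11671-11741, plus strand).
mt-Ts2: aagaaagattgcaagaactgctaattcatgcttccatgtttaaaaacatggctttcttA
mt-Tl2: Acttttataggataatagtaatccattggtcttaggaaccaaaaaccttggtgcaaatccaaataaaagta
mt-Ts2 had 1 or 2 counts in 7 libraries and 15 to 71 counts in the other 5, which are ctrl_AA14 3, cre_vehicle 3 and all 3 of cre_AA14. mt-Tl2 had 95 to 233 counts in those 7 libraries and 19 to 75 in those 5. In the 5 libraries mt-Ts2 made up 44.1% to 50.4% of the counts of both genes, and in the 7 at most 1.34%. The sum of both did not follow this split, at 1.79 ± 0.24 CPM in ctrl_vehicle, 1.97 ± 0.13 in ctrl_AA14, 2.26 ± 0.78 in cre_vehicle and 1.77 ± 1.10 in cre_AA14 (SD, n = 3 each). The counts of the single genes were thus divided differently between libraries. Fold changes of both genes rest in part on that division. Those 5 libraries include all of cre_AA14 and none of ctrl_vehicle, so the division is partly tied to the groups. Rpsa-ps5 and 6030442E23Rik, nuclear genes at up to 0.123 CPM, also had counts in those 5 libraries only. They fall outside the naming rule, and the share of all genes with this pattern is not given here. Their counts are therefore not read as a result. The cause of the division was not tested. For mt-Ts2 the log2 difference for AA14 in control-virus mice was 4.13 (SE 1.87, edgeR adjusted p = 0.208) and -0.38 without ctrl_AA14 3.

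**Figure D5:**
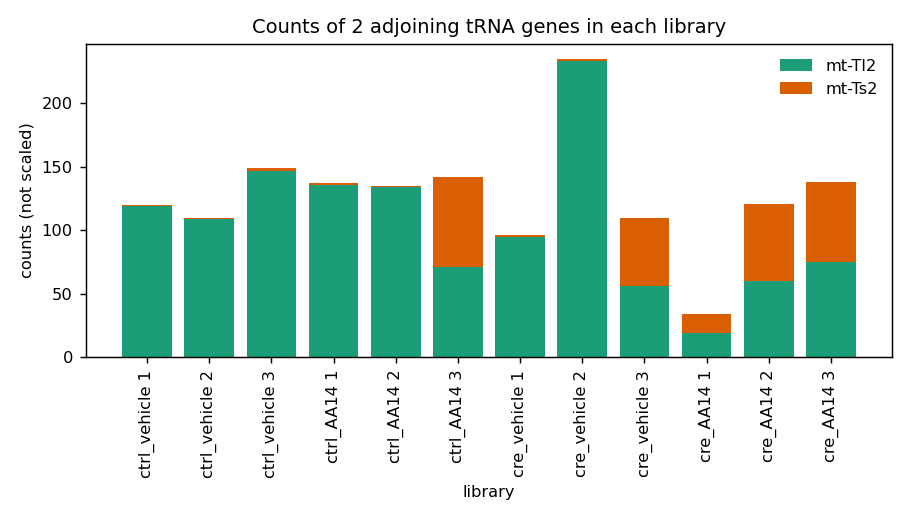
Stacked bars give the counts of mt-Tl2 and mt-Ts2 in each library, not scaled to library size. mt-Ts2 takes 44.1% to 50.4% of the sum in ctrl_AA14 3, cre_vehicle 3 and the 3 cre_AA14 libraries and at most 1.34% elsewhere.

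The cre virus was compared with the control virus under each treatment. Under vehicle all 13 protein genes had positive values, between 0.035 and 0.34, with a median of 0.22 against -0.024 over all genes, of which 46.2% were positive. None passed edgeR (0.00442% of all genes did), DESeq2 or limma-voom. With each tool 0 had an unadjusted p under 0.05, against 0.932% of all genes higher and 1.06% lower in edgeR. None was free of overlap, where 2.39% of all genes were higher and 2.53% lower. mt-Nd4 had the highest value, 0.34 (SE 0.21), from 4722, 3669 and 3014 CPM in ctrl_vehicle to 5295, 5111 and 4047 CPM in cre_vehicle. The median was 0.079 without the oligodendrocyte-rich libraries, 0.089 without cre_vehicle 2, 0.050 with limma-voom and 0.12 with GC-corrected offsets, with 10, 12, 10 and 10 of 13 positive. The share of counts in the protein genes differed by 0.11 on the log2 scale (exact two-sided permutation p = 0.5), and by 0.027 without cre_vehicle 2 and 0.23 without ctrl_vehicle 1.

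Under AA14 the values were negative for all 13, between -0.70 and -0.10, with a median of -0.33 against -0.0064 over all genes, of which 49.4% were positive. In 9 of 13 every cre_AA14 library was below every ctrl_AA14 library, which held for 6.76% of all genes, with 7.3% the other way. On the lower side, an unadjusted p under 0.05 was found for 4 (mt-Nd1, mt-Co2, mt-Atp6 and mt-Cytb), against 1.44% of all genes and 7.08% higher. None passed, as 0% of all genes did, and the lowest edgeR adjusted p was 0.582. mt-Nd1 was at 4948, 4492 and 4414 CPM in ctrl_AA14 and 2769, 3737 and 3828 CPM in cre_AA14, a log2 difference of -0.42 (SE 0.17). mt-Atp6 was at 636, 592 and 587 CPM against 499, 480.4 and 477 CPM, a log2 difference of -0.32 (SE 0.13). Both pairs of groups were apart.

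For mt-Co2 the log2 difference was -0.33 (SE 0.14) and for mt-Cytb -0.29 (SE 0.13). The share of counts in the protein genes was lower in every cre_AA14 library than in any ctrl_AA14 library, with a log2 difference of -0.31 (exact two-sided permutation p = 0.1, the smallest that 3 against 3 libraries allow, adjusted p = 0.6). Without cre_AA14 1 the share differed by -0.17 and the median of the 13 was -0.20. The 1501 nuclear genes of like GC content had a median of -0.18 in this comparison, and 26.9% of them were positive. With GC-corrected offsets the median of the 13 was -0.086, 3 were positive and 0 had an unadjusted edgeR p under 0.05. Without the oligodendrocyte-rich libraries 0 had such a p as well. The 3 ctrl_AA14 libraries are rich in Malat1 and only cre_AA14 2 is among the cre_AA14 libraries. The comparison shares its ctrl_AA14 libraries with the first comparison and its cre_AA14 libraries with the second.

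The difference between the AA14 effects, that in cre-virus mice minus that in control-virus mice, was negative for all 13 protein genes, with a median of -0.56 against 0.034 over all genes, of which 52.3% were positive. An unadjusted p under 0.05 was found for 7 (2.17% of all genes were lower at that level), and none passed edgeR (0.00442% of all genes did). The lowest adjusted p was 0.631. Values were -0.56 (SE 0.19) for mt-Co2, -0.55 (SE 0.18) for mt-Atp6, -0.51 (SE 0.18) for mt-Cytb, -0.74 (SE 0.30) for mt-Nd4 and -1.03 (SE 0.79) for mt-Nd6. The 1501 nuclear genes of like GC content had a median of -0.23 in this term, and 28.8% of them were positive. With GC-corrected offsets the median of the 13 was -0.25, 3 were positive and 0 had an unadjusted edgeR p under 0.05. That last number was also 0 without the oligodendrocyte-rich libraries.

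In the same term, 52 of the 74 nuclear subunits of the chain were positive, with a median of 0.11, 7 of them at an unadjusted p under 0.05 on the higher side and 0 on the lower, against 4.86% and 2.17% of all genes. Averaged over both genotypes, the AA14 effect on the mitochondrial protein genes had a median of 0.14 with 11 positive, against 50.3% of all genes, and 2 at an unadjusted p under 0.05, against 5.01% higher and 12.4% lower. Averaged over both treatments, the cre effect had a median of -0.042 with 0 positive, against 49.7% of all genes, and 0 at that level, against 1.03% higher and 0.924% lower. None passed edgeR in either, where 0.00442% of all genes did. On the share of counts these average effects were 0.0088 (exact stratified permutation p = 0.945) and -0.098 (p = 0.465), where the smallest possible p is 0.005.

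The protein genes varied together to different degrees over the 12 libraries. The mean Pearson correlation of a gene with the other 12, on log2(CPM + 0.5), was highest for mt-Nd1 (0.775), mt-Cytb (0.774) and mt-Nd4 (0.757) and lowest for mt-Co1 (0.449) and mt-Co3 (0.315). These values share the scaling of each library and the low levels in cre_AA14 1. Among 10671 nuclear genes that averaged 10 CPM or more, the 5 whose level was most like the mean of the 13 over the 12 libraries were Prkaa1 (r = 0.918), Rfx7 (0.894), Zfp738 (0.892), Gm28439 (0.887) and Gm28438 (0.883). The last 2 are copies of mt-Nd4 and mt-Nd3. Of the remaining copies on chromosome 1, Gm10222 ranked 9th (0.870), and Gm28437, the copy of mt-Co3, ranked 3385th (0.272).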

How the data were processed

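For each of the 12 libraries the authors deposited unscaled read counts of every gene. TRIzol RNA was made into libraries with a NEBNext Ultra RNA kit, read as 150 bp pairs on a NovaSeq and mapped with HISAT2 2.0.0, per the labels' protocols. The submitters' processing notes list GRCm38, DESeq 1.8.3 and featureCounts 1.5.0-p3. The sources used here do not give the annotation release, the strand setting or how reads that fit several genes were counted. Of 55421 gene IDs, 55154 matched a symbol, and the rest took up to 0.0135% of the counts in a library.

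Genes were kept with filterByExpr in edgeR 4.0.16 (22630 genes) and scaled with TMM. Quasi-likelihood F tests used 1 mean per group over 12 libraries, with Benjamini-Hochberg adjustment at 0.05, for 7 comparisons. Each SE is the absolute log2 difference divided by the square root of F. The steps were tested on simulated counts. Shares and ratios per library (3 measures) were tested by exact permutation, adjusted over 6 comparisons each. The naming rule took all protein and rRNA genes, and tRNA genes that averaged 1 CPM or more. mt-Tw, mt-Tq and mt-Ts2 fall below this and were named after their values were seen. The members and lists were chosen with earlier results of these data known. The alternatives tried were library sizes without hormone or mt- genes, RLE and upper quartile factors, DESeq2 1.42.0, limma-voom (limma 3.58.1), other filters, 2 groups only, the replicate number as a block, GC-corrected offsets (a loess trend of span 0.3), and libraries left out. Windows and sequences came from GENCODE vM21 transcripts. Python 3.11.15 and R 4.3.3 were used.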

Additional observations from a re-analysis of the deposited data

How the results depend on the processing

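The count of 0 mitochondrial genes past the threshold for AA14 in control-virus mice became 3 with DESeq2, 4 with limma-voom and 1 with these 2 groups only, and remained 0 under the other settings. It was 0 under every setting run in the other 6 comparisons. For DESeq2, limma-voom and the fit of 2 groups only, the share of all genes called is not given here. Those calls are therefore not read as particular to mitochondrial genes. The median over the 13 protein genes for AA14 in control-virus mice was 0.014 with GC-corrected offsets (0.012 with the replicate block added) and 0.32 to 0.47 with 1 library left out. Upper quartile scaling moved the median of all genes to 0.11 in this comparison and that of the 13 to 0.51. GC-corrected offsets gave -0.25 for the difference between the AA14 effects (also with the block), -0.13 (-0.14 with the block) for the average AA14 effect and 0.030 (0.028 with the block) for the average cre effect, which was -0.090 to 0.0030 with 1 library left out. AA14 in cre-virus mice was at 0.037 with limma-voom. The cause of these shifts was not tested.

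With 1 library left out, the share of counts in the protein genes moved between -0.040 and 0.079 for the average AA14 effect and between 0.14 and 0.34 for AA14 in control-virus mice. The ratio of rRNA to protein genes moved between -0.47 and 0.51 for cre under vehicle, -0.30 and 0.13 for cre under AA14, -0.25 and 0.24 for the average cre effect and -0.80 and -0.30 for the average AA14 effect. The ratio of mt-Nd6 to the other protein genes moved between 0.14 and 0.39 for AA14 in control-virus mice, -1.30 and 0.040 for AA14 in cre-virus mice, -0.016 and 0.29 for cre under vehicle, -0.51 and 0.16 for the average AA14 effect and -0.61 and 0.061 for the average cre effect. Single genes that changed sign for AA14 in control-virus mice were, with GC-corrected offsets (and with the block added), mt-Nd2 at -0.11 (-0.11), mt-Nd3 at -0.10 (-0.080), mt-Nd5 at -0.10 (-0.12), mt-Co1 at -0.22 (-0.21) and mt-Atp8 at -0.18 (-0.19). With 1 library left out, mt-Co1 lay between -0.022 (without ctrl_vehicle 2) and 0.13, and mt-Ts2 between -0.38 (without ctrl_AA14 3) and 4.68. For AA14 in cre-virus mice mt-Nd5 lay between -0.89 and 0.016 (without cre_AA14 1).

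Whether the replicate numbers pair the samples is not known. Correlations of deviations between same-numbered libraries lay between -0.56 and 0.36, with 5 of 18 above 0.1. Libraries of different number spread as widely, from -0.50 to 0.67, so these correlations cannot decide it. With the number as a replicate block, 0 mitochondrial genes were called in each comparison, and the median for AA14 in control-virus mice was 0.39. With 3 libraries per group no exact test of 2 groups can go below p = 0.1.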
